A study of Mus musculus with 6 samples.

Results

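The 33 genes described here code for the enzymes and carriers that take glucose into the cell, split it to lactate through glycolysis, and divert part of it into the pentose phosphate pathway. Their symbols were matched to Ensembl IDs in a table of raw counts over 55421 genes, and a gene was kept when at least 10 counts were found in at least 3 libraries. Of the 33, 32 were kept, all with at least 83 counts in every library, so none passed through one genotype alone. The exception was Fbp1, the gluconeogenic fructose bisphosphatase, with 0 counts in all 6 libraries. A count of 0 allows at most 3 counts, or 0.0583 to 0.0717 CPM (counts scaled to the library total) here, which covers counting error only.

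The libraries were made from tumor-associated macrophages (TAMs) of tumor-bearing mice, labeled as CD11b+F4/80+ cells from implanted M17 tumors (the MC17-51 fibrosarcoma line in the study), collected on day 15. The control group of 3 libraries came from Pdcd1f/f mice, in which both copies of the gene for the inhibitory receptor PD-1 carry loxP sites. The other group of 3 libraries came from Pdcd1f/fLysMcre mice, which carry the same floxed gene and Cre recombinase driven by the lysozyme M promoter, active in macrophages, monocytes and neutrophils and not in TAMs alone. Both groups shared the floxed allele and the implanted tumor, and only the second carried Cre, so Cre without the floxed gene is not among these groups. The study used mice 8 to 12 weeks old of both sexes. How many mice gave RNA to each library is not given in the sources used here. The p-values therefore measure the spread between these libraries, which may be partly technical. The comparison asked whether myeloid deletion of Pdcd1 changed transcript levels along these pathways.

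Glycolysis converts glucose to pyruvate in the cytosol, and lactate dehydrogenase then regenerates the cofactor that lets it continue. Its flux is set largely at glucose entry, hexokinase and phosphofructokinase, and the PFKFB enzymes make or remove the sugar bisphosphate that activates phosphofructokinase. The pentose phosphate pathway branches off after hexokinase, yields NADPH in its oxidative arm and ribose phosphate in its non-oxidative arm. In macrophages, glycolysis is known to increase on inflammatory activation and in hypoxia, where the transcription factor HIF-1 binds short DNA elements with the core ACGTG or GCGTG near many of these genes.

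The 250 bases before the start sites of Pfkfb3, the one gene of the list past the threshold, and of Pfkl and Pfkp, which code for subunits of one enzyme and had log2 fold changes of opposite sign, are printed from RefSeq (GRCm38.p6), 5′ to 3′ on the strand of the gene. Capitals mark ACGTG and GCGTG, read on both strands, and the capitals CACGTG hold one ACGTG match on the opposite strand and one on the printed strand. The windows are chr2:11553930-11554179 (first Pfkfb3 start) and chr2:11502091-11502340 (second Pfkfb3 start), chr10:78009808-78010057 for Pfkl and chr13:6648772-6649021 for Pfkp, all on the minus strand.
Pfkfb3 first start: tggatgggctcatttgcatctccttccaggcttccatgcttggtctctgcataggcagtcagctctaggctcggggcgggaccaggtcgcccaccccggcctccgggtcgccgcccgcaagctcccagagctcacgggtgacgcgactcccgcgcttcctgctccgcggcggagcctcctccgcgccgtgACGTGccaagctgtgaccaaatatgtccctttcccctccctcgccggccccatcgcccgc
Pfkfb3 second start: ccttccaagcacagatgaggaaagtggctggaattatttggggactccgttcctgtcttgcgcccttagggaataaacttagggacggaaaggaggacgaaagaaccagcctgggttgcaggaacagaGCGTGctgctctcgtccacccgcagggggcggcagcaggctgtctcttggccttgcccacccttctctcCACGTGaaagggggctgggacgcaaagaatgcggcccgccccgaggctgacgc
Pfkl: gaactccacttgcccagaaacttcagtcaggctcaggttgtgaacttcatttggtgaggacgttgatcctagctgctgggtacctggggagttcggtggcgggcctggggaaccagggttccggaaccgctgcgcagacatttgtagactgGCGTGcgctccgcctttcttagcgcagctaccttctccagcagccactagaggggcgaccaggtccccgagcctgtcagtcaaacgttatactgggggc
Pfkp: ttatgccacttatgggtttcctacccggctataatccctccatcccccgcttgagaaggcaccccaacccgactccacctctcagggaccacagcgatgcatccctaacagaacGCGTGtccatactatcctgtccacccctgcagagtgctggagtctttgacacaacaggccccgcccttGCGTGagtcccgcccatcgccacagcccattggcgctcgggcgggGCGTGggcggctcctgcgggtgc

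Of the 33 genes, 32 had an entry in the promoter table, with 47 start sites, and Slc2a3 had none. ACGTG was present in 17 of these 47 windows (36.2%), against 16.6% of all 32851 windows of the same length. GCGTG was present in 26 of 47 (55.3%), against 28.2% of all windows. CACGTG, which overlaps ACGTG, was present in 5 of 47 (10.6%), against 6.02% of all windows. The windows of Pfkfb3 held 1 and 2 ACGTG matches and the second also 1 GCGTG match, while those of Pfkl and Pfkp held none and 1 and 3 GCGTG matches. The window of the related gene Pfkfb4 held 1 GCGTG match. Windows of one gene are not independent, and a match describes the letters only. The windows compared were not matched for base composition, and both cores contain CG, so the higher shares may reflect composition, which was not tested.

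Library totals ranged from 41833823 to 51417209 counts. Lyz2, into which Cre is inserted, had 216864 ± 8638 normalized counts in Pdcd1f/f and 427 ± 33.4 in Pdcd1f/fLysMcre TAMs (SD, n = 3), so the libraries with and without Cre matched their labels. Lyz2 counts were thus nearly lost in the group with Cre, and this difference cannot be told apart from the deletion of Pdcd1. Pdcd1 had few counts and no detectable loss (log2 fold change −0.25, adjusted p = 0.771 from edgeR), and a gene-level count cannot tell the floxed exons from the others. Before any comparison, 2 libraries stood apart in the direction of their deviation with GC content. The deviation of each gene from the mean of its genotype correlated with the GC content of the gene with a Spearman rho of −0.58 in Pdcd1f/f replicate 1 and −0.49 in Pdcd1f/fLysMcre replicate 2, and of 0.12 to 0.51 in the other 4 libraries (across 14454 genes of the same libraries, which are not independent replicates). In these same libraries 24 and 27 of the 32 pathway genes lay below the mean of their genotype, and in the other 4 libraries 6 or 7 did. A low library lowers the mean of its genotype, so the opposite direction in the other 4 libraries follows in part from the centring. This holds for rho as well, which was about as large in size in Pdcd1f/f replicate 3 (0.51) and Pdcd1f/fLysMcre replicate 3 (0.50). The pathway genes are GC-rich, with a median GC content of 53.1%, against 49.2% over all genes tested. Values are therefore given with all 6 libraries, with GC and length offsets fitted within each library, and without these libraries where that matters.

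In the main edgeR test, 1 of the 32 genes changed. Pfkfb3, whose product makes the activator of phosphofructokinase, fell by 20.5%, and the other 31 genes did not pass the threshold. With GC and length offsets 6 passed it, 4 higher and 2 lower, beside 18.6% of all genes. With 1 library left out 0 to 9 passed it, beside 1.51 to 21.6% of all genes. Over all 14469 genes tested, edgeR's quasi-likelihood test put 786 (5.43%) past a Benjamini-Hochberg adjusted p of 0.05, of which 350 (2.42%) were higher and 436 (3.01%) lower in TAMs with Cre. None of the 32 pathway genes was higher by this test or by DESeq2. At an unadjusted p under 0.05, 2 of them (6.25%) were higher in both tools, against 12.3% of all genes in edgeR. DESeq2 called 2 of the 32 genes (Pfkfb3 and Pfkl, both lower) and 11.1% of all genes, 5.23% higher and 5.82% lower. In bulk RNA, fewer cells that express a gene and less RNA of that gene per cell cannot be told apart. The log2 fold changes of the 32 genes lay between −0.35 and 0.34, 22 below and 10 above 0, with a median of −0.079, against −0.0026 over all genes. With 1 library left out this median ranged from −0.160 (without Pdcd1f/f replicate 1) to −0.0031 (without Pdcd1f/fLysMcre replicate 2). Their median absolute log2 fold change was 0.135, against 0.160 over all genes. None was beyond 0.5 in either direction, while 1511 of all genes were. The libraries of the genotypes did not overlap for 8 of the 32 genes, 4 higher (Slc2a3, Pfkp, Slc16a1 and Rpe) and 4 lower (Pfkfb3, Pfkfb4, Aldoc and Eno2), while over all genes they did not overlap for 27.2%, with 14.1% higher and 13.1% lower.

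**Figure D1:**
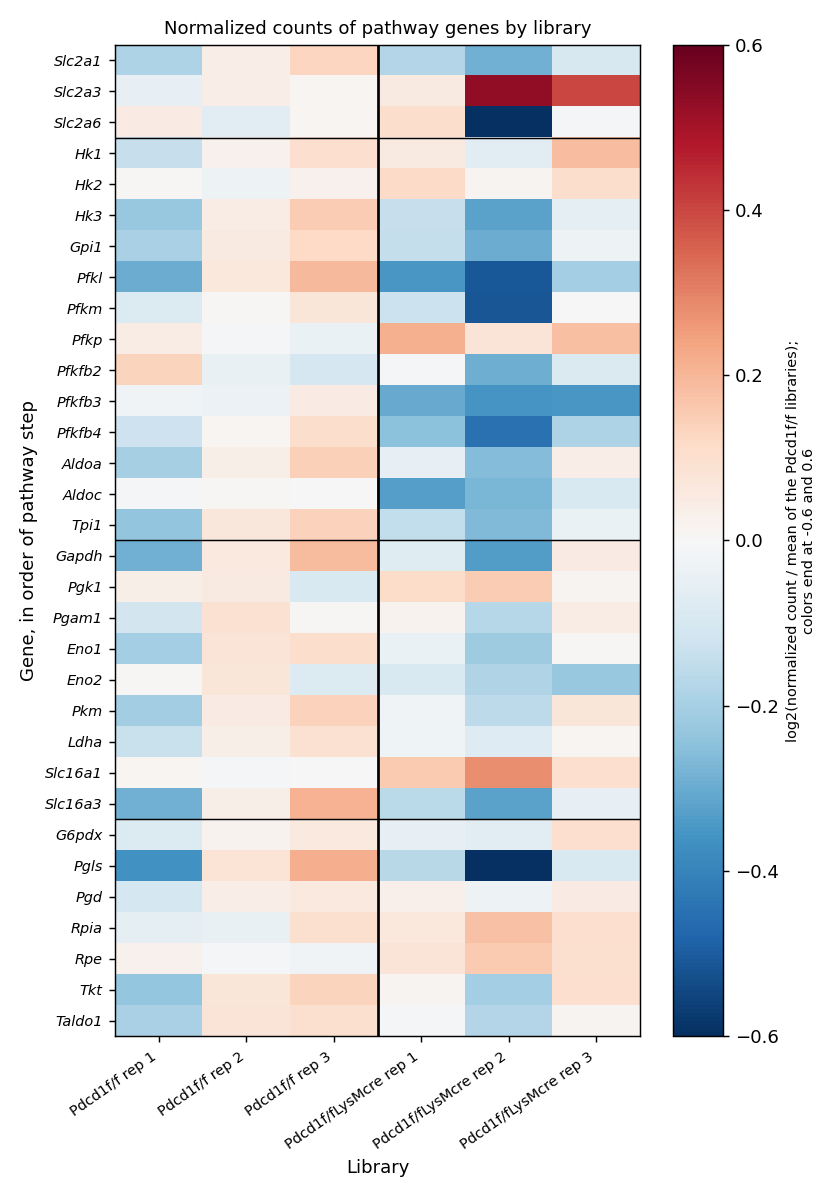
Heat map of the 32 pathway genes, in order of pathway step, in the 6 libraries. Color gives log2 of the normalized count over the mean of the 3 Pdcd1f/f libraries, from −0.6 (blue) to 0.6 (red), and stronger values take the end color. Pfkfb3 is blue in all 3 Pdcd1f/fLysMcre libraries, and Pdcd1f/f replicate 1 and Pdcd1f/fLysMcre replicate 2 are blue across many genes.

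The summed level of all 33 genes was 7533 to 9189 CPM in Pdcd1f/f TAMs and 7350 to 8646 CPM in Pdcd1f/fLysMcre TAMs, and these ranges overlapped. Per kilobase of exon, Aldoa, Pkm, Ldha, Gapdh, Tpi1, Eno1 and Pgk1 were the most abundant of the list in both genotypes. The lengths sum all annotated exons of a gene and not those of the transcripts expressed, so the order of genes depends on them. Agreement across libraries does not test this, since a gene has the same length in each. Aldoa, the muscle and ubiquitous aldolase, had 350 ± 42.0 CPM per kilobase in Pdcd1f/f and 331 ± 34.7 in Pdcd1f/fLysMcre TAMs (SD, n = 3). Pkm, pyruvate kinase, followed with 308 ± 37.9 and 302 ± 23.9, and Ldha, lactate dehydrogenase A, with 279 ± 22.6 and 273 ± 8.48. Aldoa exceeded Pkm, and Pkm exceeded Ldha, in all 6 libraries. Gapdh (199 ± 32.6 and 184 ± 24.5 CPM per kilobase) and Tpi1 (175 ± 23.5 and 158 ± 12.3) came next, Gapdh above Tpi1 in all 6 libraries. Eno1 (119 ± 13.8 and 113 ± 8.90) and Pgk1 (104 ± 5.99 and 111 ± 5.17) followed, and Eno1 exceeded Pgk1 in 4 of 6 libraries, so their order was not resolved. Slc2a3 was the lowest of the genes kept, with 0.289 ± 0.010 and 0.367 ± 0.060 CPM per kilobase.

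**Figure D2:**
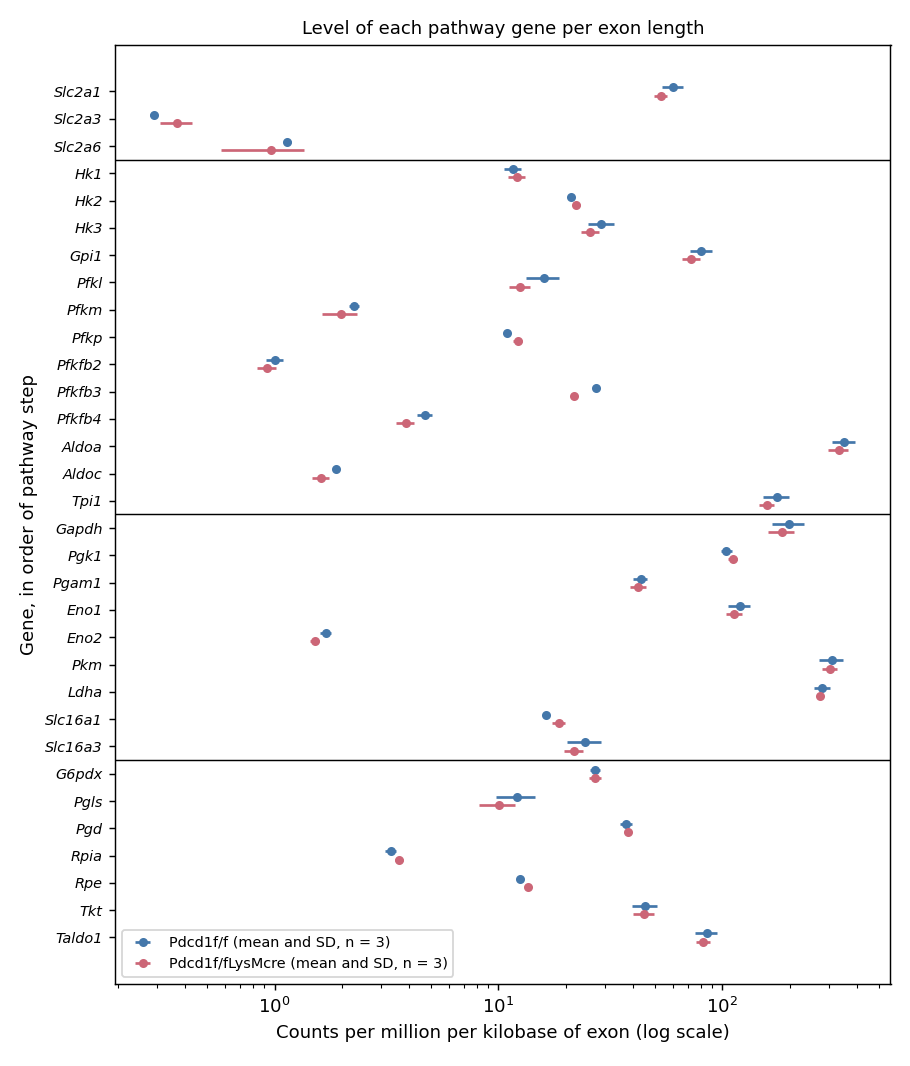
Level of each of the 32 genes in CPM per kilobase of exon (log axis), with points for the mean and bars for the SD over 3 libraries, blue for Pdcd1f/f and red for Pdcd1f/fLysMcre. Levels run from under 1 CPM per kilobase for Slc2a3 to 350 for Aldoa, and both genotypes lie close together for nearly every gene.

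Glucose enters macrophages mainly through the transporter GLUT1, the product of Slc2a1, which made up 97.7% of the counts per kilobase of the listed glucose transporters in Pdcd1f/f and 97.6% in Pdcd1f/fLysMcre TAMs. Slc2a1 had 9998 ± 1089 and 8804 ± 587 normalized counts (SD, n = 3), with overlapping libraries and a log2 fold change of −0.18 (SE 0.09, adjusted p = 0.229 from edgeR). With Pdcd1f/f replicate 1 and Pdcd1f/fLysMcre replicate 2 left out it passed the threshold (−0.22, adjusted p = 0.00405 from edgeR), and with GC and length offsets it was at −0.07 (adjusted p = 0.270 from edgeR). Slc2a3, which codes for the high-affinity transporter GLUT3, had 95.5, 102 and 99.7 normalized counts in Pdcd1f/f TAMs and 103, 143 and 131 in Pdcd1f/fLysMcre TAMs. Every Pdcd1f/fLysMcre library lay above every Pdcd1f/f library, the nearest by a narrow margin, and the log2 fold change of 0.34 (SE 0.17) did not pass the threshold (adjusted p = 0.240 from edgeR). Slc2a6, which codes for the lysosomal transporter GLUT6, had 165 to 179 normalized counts in Pdcd1f/f TAMs and 79.0 to 186 in Pdcd1f/fLysMcre TAMs. The low value of 79.0 was that of Pdcd1f/fLysMcre replicate 2, and the other libraries of both genotypes overlapped (log2 fold change −0.24, SE 0.26).

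The hexokinases phosphorylate glucose and trap it in the cell. None of the 3 passed the threshold. Per kilobase, Hk3 was the most abundant in Pdcd1f/f TAMs, with 28.8 ± 3.83 CPM, ahead of Hk2 with 21.0 ± 0.315 and Hk1 with 11.6 ± 0.969 (SD, n = 3). Before division by exon length (3682 bases for Hk3 and 5969 for Hk2), Hk2 had more counts than Hk3 in every library. The log2 fold changes were 0.07 for Hk1, 0.08 for Hk2 and −0.16 for Hk3, with adjusted p-values of 0.668, 0.419 and 0.353 from edgeR. The share of Hk3 in the hexokinase counts per kilobase was 43.8, 47.9 and 48.7% in Pdcd1f/f TAMs and 42.9, 41.6 and 43.7% in Pdcd1f/fLysMcre TAMs. These shares did not overlap between the genotypes, although Pdcd1f/fLysMcre replicate 3 lay just under Pdcd1f/f replicate 1. The Hk1 share was 18.7, 19.0 and 18.9% in Pdcd1f/f TAMs and 19.7, 20.03 and 20.8% in Pdcd1f/fLysMcre TAMs, higher without overlap, and that of Hk2 overlapped. With GC and length offsets, Hk1 (0.19, adjusted p = 0.00414) and Hk2 (0.14, adjusted p = 0.0307) were past the threshold in edgeR and Hk3 was not (−0.02, adjusted p = 0.820). Gpi1, which converts glucose 6-phosphate to fructose 6-phosphate, had 24508 ± 2728 and 22032 ± 2029 normalized counts (SD, n = 3), and its log2 fold change of −0.15 did not pass the threshold (adjusted p = 0.351 from edgeR).

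At phosphofructokinase, the committed step, the list holds the subunit genes Pfkl, Pfkm and Pfkp and the regulatory enzymes Pfkfb2, Pfkfb3 and Pfkfb4. Pfkfb3 (ENSMUSG00000026773, chromosome 2 of GRCm38, 11471433 to 11554077, minus strand) had 9653, 9550 and 10135 normalized counts in Pdcd1f/f TAMs. It had 7936, 7660 and 7684 in Pdcd1f/fLysMcre TAMs. All Pdcd1f/fLysMcre libraries lay below all Pdcd1f/f libraries, and the gap between the groups was wider than the range within either. The log2 fold change was −0.33 (SE 0.06, 95% interval −0.46 to −0.20), with an adjusted p of 0.00901 from edgeR. Its GC content of 50.2% is near the median of all genes, and the fall was about as large with GC and length offsets (−0.31, adjusted p = 4.35e-05 from edgeR) and without the libraries that stood apart (−0.34, adjusted p = 1.17e-04 from edgeR). The call was lost without Pdcd1f/f replicate 2 (adjusted p = 0.0571 from edgeR) and without Pdcd1f/fLysMcre replicate 1 (adjusted p = 0.0595 from edgeR), where the log2 fold change was −0.35 in both fits. It passed in 12 of 14 alternative fits.

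Pfkfb3 was also the most abundant of the PFKFB genes per kilobase. It made up 82.8 ± 0.470% of their counts per kilobase in Pdcd1f/f and 82.0 ± 1.28% in Pdcd1f/fLysMcre TAMs (SD, n = 3), and these shares overlapped. Pfkfb4, a related enzyme induced by hypoxia, had 993, 1089 and 1162 normalized counts in Pdcd1f/f TAMs and 913, 792 and 951 in Pdcd1f/fLysMcre TAMs. Its groups did not overlap, and its log2 fold change of −0.29 (SE 0.10) was close in size to that of Pfkfb3 but did not pass the threshold (adjusted p = 0.106 from edgeR). Without the libraries that stood apart it was −0.28 (adjusted p = 0.0127 from edgeR), and with GC and length offsets −0.17 (adjusted p = 0.0563 from edgeR). Pfkfb2, the heart isoform, had 321 to 378 and 281 to 342 normalized counts with overlapping libraries (log2 fold change −0.12, adjusted p = 0.555 from edgeR).

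The subunit genes of phosphofructokinase itself differed in sign. Pfkl, the liver-type subunit, had 4085, 5238 and 5737 normalized counts in Pdcd1f/f TAMs and 3938, 3525 and 4360 in Pdcd1f/fLysMcre TAMs. The groups overlapped because Pdcd1f/f replicate 1, one of the libraries that stood apart, was low, and the log2 fold change of −0.35 (SE 0.12) did not pass the threshold (adjusted p = 0.115 from edgeR). Pfkp, the platelet-type subunit, had 7128, 6877 and 6723 normalized counts in Pdcd1f/f TAMs and 7998, 7292 and 7824 in Pdcd1f/fLysMcre TAMs. All Pdcd1f/fLysMcre libraries were above all Pdcd1f/f libraries, with a log2 fold change of 0.16 (SE 0.06, adjusted p = 0.152 from edgeR). With GC and length offsets both genes were past the threshold, Pfkl at −0.21 (adjusted p = 0.0147 from edgeR) and Pfkp at 0.15 (adjusted p = 0.0174 from edgeR). Without the libraries that stood apart they were past it as well, at −0.41 (adjusted p = 1.46e-04 from edgeR) and 0.22 (adjusted p = 0.00358 from edgeR). DESeq2 called Pfkl (adjusted p = 0.0429) and not Pfkp (adjusted p = 0.132).

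Counted per kilobase, Pfkl held 49.2, 55.8 and 58.3% of the phosphofructokinase subunit counts in Pdcd1f/f TAMs and 45.9, 46.0 and 48.6% in Pdcd1f/fLysMcre TAMs. Pfkp held 42.7, 36.5 and 34.0% in Pdcd1f/f TAMs and 46.5, 47.4 and 43.4% in Pdcd1f/fLysMcre TAMs. The shares of both genes did not overlap between the genotypes. Per kilobase, Pfkl exceeded Pfkp in all 3 Pdcd1f/f libraries and in 1 of 3 Pdcd1f/fLysMcre libraries. This order rests on the summed exon lengths used, 6675 bases for Pfkl and 13401 for Pfkp. Before division by length, Pfkp had more counts than Pfkl in every library. Pfkl has a GC content of 57.1% and Pfkp of 48.0%, and the shares were not recomputed with GC and length offsets. Pfkm, the muscle-type subunit, was the least abundant of the 3, with 338 to 376 and 251 to 357 normalized counts that overlapped between the genotypes (log2 fold change −0.20, adjusted p = 0.410 from edgeR).

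**Figure D3:**
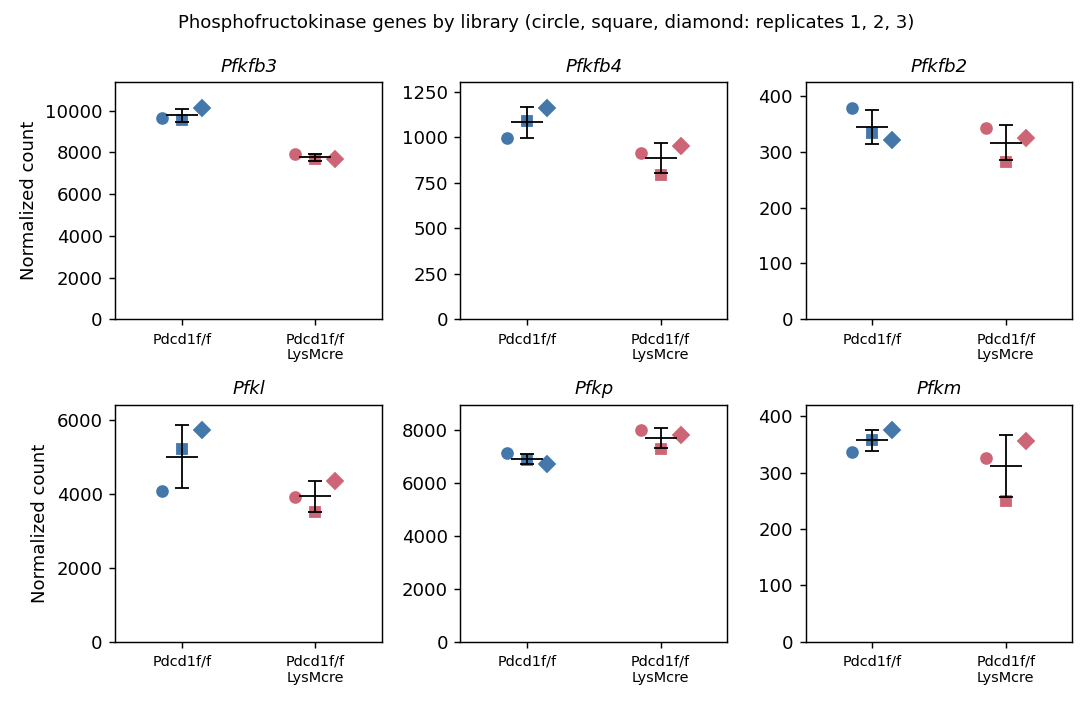
Normalized counts of the PFKFB genes (top) and the phosphofructokinase subunit genes (bottom) in each library, with every axis starting at 0. Circles, squares and diamonds are replicates 1, 2 and 3, and horizontal lines with bars give the mean and SD (n = 3). Pfkfb3 and Pfkfb4 are lower and Pfkp is higher in all Pdcd1f/fLysMcre libraries, and Pfkl overlaps through Pdcd1f/f replicate 1.

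None of the remaining genes of the upper pathway passed the threshold. Aldoa, which splits the sugar bisphosphate and supplied 99.5% of aldolase counts per kilobase in both genotypes, had 48106 ± 5747 and 45390 ± 4737 normalized counts (SD, n = 3), with a log2 fold change of −0.08 (adjusted p = 0.651 from edgeR). Aldoc, the brain-type aldolase, had 287, 292 and 290.2 normalized counts in Pdcd1f/f TAMs and 230.4, 240.0 and 272 in Pdcd1f/fLysMcre TAMs. The Pdcd1f/f libraries were close together and above all the others, but the log2 fold change of −0.23 did not pass the threshold (adjusted p = 0.249 from edgeR). Tpi1, triose phosphate isomerase, had 22777 ± 3026 and 20568 ± 1587 normalized counts (SD, n = 3), with overlapping libraries (log2 fold change −0.15, adjusted p = 0.395 from edgeR). Gpi1, Tpi1 and Hk3 were lower and past the threshold when both libraries that stood apart were left out, at −0.18, −0.20 and −0.20. With GC and length offsets they were at −0.09, −0.05 and −0.02, with adjusted p-values of 0.311, 0.585 and 0.820 from edgeR.

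In lower glycolysis and lactate export, none of the 9 genes passed the threshold, and the log2 fold changes lay between −0.17 and 0.18. The enzymes from Gapdh to Ldha with abundant transcripts were Gapdh (−0.11), Pgk1 (0.10), Pgam1 (−0.03), Eno1 (−0.08), Pkm (−0.03) and Ldha (−0.03), with adjusted p-values of 0.407 to 0.874 from edgeR and overlapping libraries throughout. For Ldha the libraries had 39667 to 46358 normalized counts in Pdcd1f/f and 41304 to 43887 in Pdcd1f/fLysMcre TAMs, a 95% interval of the log2 fold change of −0.19 to 0.13. Pkm had 62877 to 80057 and 65329 to 76495 normalized counts. Its log2 fold change of −0.03 turned to 0.12 with GC and length offsets and then passed the threshold (higher, adjusted p = 0.0345 from edgeR). Eno2, the neuronal enolase and the minor enolase here, had 377, 396 and 355 normalized counts in Pdcd1f/f TAMs and 353, 331 and 322 in Pdcd1f/fLysMcre TAMs. All Pdcd1f/fLysMcre libraries were below all Pdcd1f/f libraries by a narrow margin, without passing the threshold (log2 fold change −0.16, adjusted p = 0.354 from edgeR).

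The monocarboxylate transporters carry lactate across the membrane. Slc16a1 codes for MCT1, which takes lactate up or exports it, and had 3446, 3400 and 3416 normalized counts in Pdcd1f/f TAMs and 3812, 4144 and 3664 in Pdcd1f/fLysMcre TAMs. The Pdcd1f/f libraries were nearly equal, with a coefficient of variation of 0.684%, and all lay below the Pdcd1f/fLysMcre libraries, yet the log2 fold change of 0.18 (SE 0.07) did not pass the threshold (adjusted p = 0.130 from edgeR) in any of 14 alternative fits. Slc16a3 codes for MCT4, the exporter of highly glycolytic cells, and had 5026 to 7081 and 4914 to 5928 normalized counts (log2 fold change −0.17, adjusted p = 0.399 from edgeR). The libraries of Slc16a3 overlapped, and it was lower and past the threshold only with Pdcd1f/f replicate 1 left out, alone or together with Pdcd1f/fLysMcre replicate 2, and was at −0.03 with GC and length offsets.

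None of the 7 pentose phosphate genes passed the threshold, and their median log2 fold change was 0.00. G6pdx, the entry enzyme that makes the first NADPH, had 3712, 3981 and 4082 normalized counts in Pdcd1f/f TAMs and 3798, 3759 and 4209 in Pdcd1f/fLysMcre TAMs. The means of 3925 ± 191 and 3922 ± 249 (SD, n = 3) differed by less than the spread between libraries, with a 95% interval of the log2 fold change of −0.16 to 0.16. Pgd, the second NADPH-yielding dehydrogenase, was also close (11347 ± 684 and 11471 ± 331, log2 fold change 0.02). Pgls, the lactonase between them, varied the most between Pdcd1f/f libraries of all 32 genes, with a coefficient of variation of 19.9%, and had a log2 fold change of −0.27 (SE 0.16, adjusted p = 0.325 from edgeR). Pgls passed in 3 of 14 alternative fits, among them those without Pdcd1f/f replicate 1 (−0.43) and without both libraries that stood apart (−0.28, adjusted p = 0.00374 from edgeR), and was at −0.12 with GC and length offsets (adjusted p = 0.410 from edgeR). In the non-oxidative arm, Tkt (−0.02) and Taldo1 (−0.05), which shuffle carbon units between sugar phosphates, had overlapping libraries. Rpe, the ribulose phosphate epimerase, had 1869, 1826 and 1808 normalized counts in Pdcd1f/f TAMs and 1933, 2045 and 1961 in Pdcd1f/fLysMcre TAMs. Its groups did not overlap, with a log2 fold change of 0.11 (SE 0.07, adjusted p = 0.322 from edgeR). Rpia, the ribose phosphate isomerase, had a similar log2 fold change of 0.12 with overlapping libraries (adjusted p = 0.407 from edgeR).

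**Figure D4:**
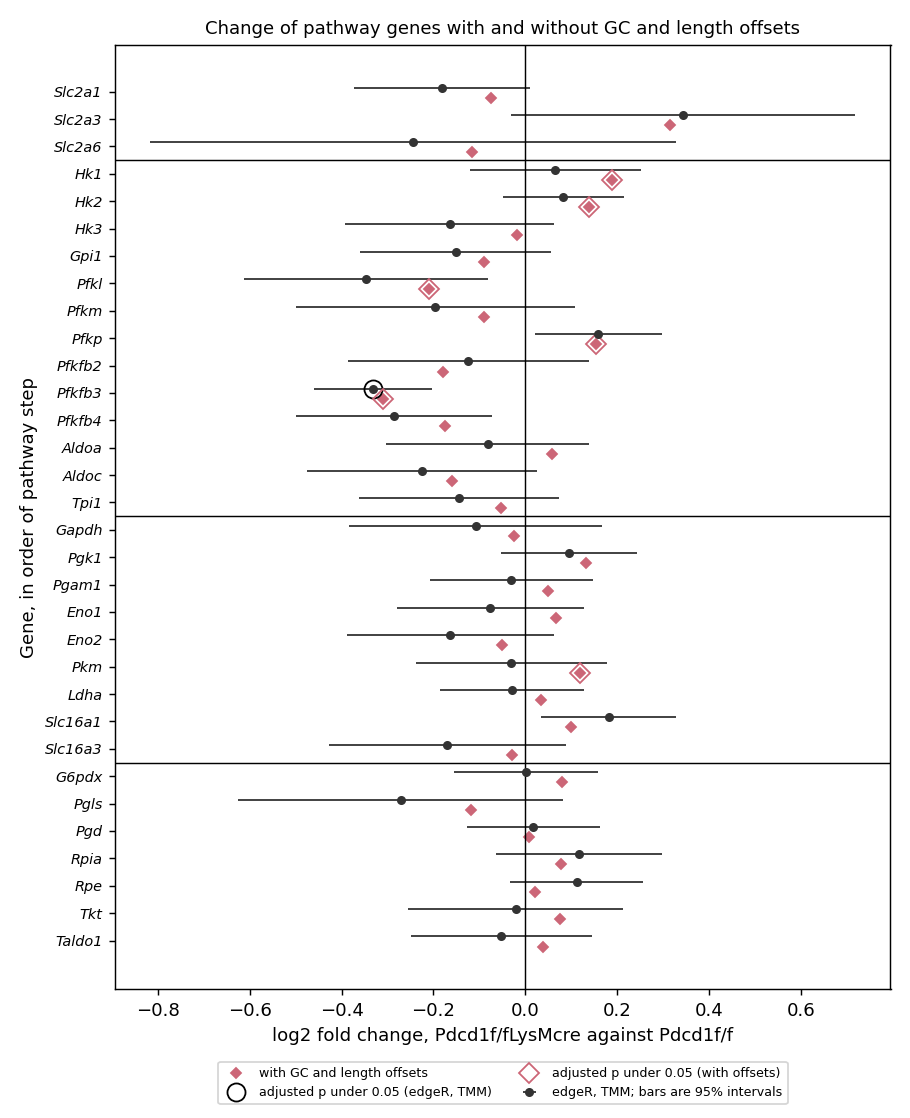
Log2 fold change of each of the 32 genes in Pdcd1f/fLysMcre against Pdcd1f/f TAMs. Black points and bars are edgeR estimates with 95% intervals, red diamonds are the estimates with GC and length offsets, and rings mark an adjusted p under 0.05. Pfkfb3 is ringed in both fits, and Hk1, Hk2, Pfkl, Pkm and Pfkp are ringed with the offsets only.

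The precision of these estimates allowed most genes to be bounded. The 95% interval lay within 1.5-fold in either direction for 28 of the 32 genes and within 2-fold for all 32, with bounds from −0.82 (Slc2a6) to 0.72 (Slc2a3) on the log2 scale. It left out 0 for 5 genes, Pfkl, Pfkp, Pfkfb3, Pfkfb4 and Slc16a1, or 15.6%, while an unadjusted p under 0.05 was found for 24.2% of all genes. Across the 32 genes, the log2 fold change and the GC content had a Spearman rho of −0.58, and −0.22 with GC and length offsets, a description across genes of the same 6 libraries. Over all genes these values were −0.36 and −0.04. With the offsets, 6 of the 32 genes were past the threshold, 4 higher (Hk1, Hk2, Pfkp and Pkm) and 2 lower (Pfkl and Pfkfb3), while 18.6% of all genes were (10.7% higher and 7.91% lower), and the median of the 32 genes was 0.01. Without both libraries that stood apart, an alternative chosen after the data were seen, 10 were past it, Pfkp higher and 9 lower, beside 26.2% of all genes (12.5% higher and 13.6% lower). The median of the 32 genes was −0.081 in that fit. Pfkfb3, Pfkl and Pfkp had the same sign with all 6 libraries, with the offsets and without these libraries.

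Among 47 further genes of glucose metabolism, 34 were tested and 1 was past the threshold, beside 5.43% of all genes. Gpd1, the cytosolic glycerol phosphate dehydrogenase that draws on a glycolytic intermediate, had 317, 346 and 355 normalized counts in Pdcd1f/f TAMs and 241, 214 and 248 in Pdcd1f/fLysMcre TAMs. It fell by 0.53 on the log2 scale (SE 0.11, adjusted p = 0.0235 from edgeR), without overlap, and passed in 10 of 14 alternative fits and in 2 of 6 with a library left out. None of the 34 was higher by this test. At an unadjusted p under 0.05 in edgeR 5 were higher (14.7%, beside 12.3% of all genes). DESeq2 called 6 of the 34, beside 11.1% of all genes, 3 higher (Tigar, Gpd2 and Pdha1, adjusted p = 0.0259, 0.0220 and 0.0339) and 3 lower (Gpd1, Eno3 and Pygb). With GC and length offsets edgeR called 3 higher and 3 lower, beside 10.7% and 7.91% of all genes. Of 16 regulators tested of 18 listed, Hif1a, the oxygen-sensitive subunit of HIF-1, was the only one past the threshold. It had 22631, 20950.0 and 20980 normalized counts in Pdcd1f/f TAMs and 25726, 27614 and 24480 in Pdcd1f/fLysMcre TAMs, all higher (log2 fold change 0.27, SE 0.07, adjusted p = 0.0420 from edgeR). Hif1a passed it in 9 of 14 alternative fits and in 1 of 6 with a library left out, and was at 0.17 with GC and length offsets (adjusted p = 0.00755 from edgeR). That fit called 5 regulators, Hif1a, Egln1, Nfe2l2 and Trp53 higher and Txnip lower, beside 18.6% of all genes. Of 15 HIF targets outside the pathway, Ero1l, an oxidase of the endoplasmic reticulum, rose by 0.38 on the log2 scale (adjusted p = 0.00603 from edgeR) and Ndrg1, a stress-responsive gene, by 0.29 (adjusted p = 0.0275 from edgeR). Ero1l passed in 13 of 14 alternative fits and 5 of 6 with a library left out, and Ndrg1 in 9 of 14 and 1 of 6. The other 13 did not pass the threshold. Of all 15, 6 had a log2 fold change above 0 and 9 below, with a median of −0.026. The genotypes did not overlap for 3 higher and 3 lower genes. With GC and length offsets edgeR called 2 of the 15 higher and 2 lower.

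Other transcripts moved with genotype and are given beside these results. Of 8 macrophage markers, 4 were lower (Adgre1, Csf1r, Mrc1 and C1qa), while Cd14 had a log2 fold change of 0.15 that passed in 2 of 14 alternative fits, among them the one with GC and length offsets (0.22, adjusted p = 5.30e-04 from edgeR). DESeq2 and the fit with offsets each called 5 lower, Fcgr1 in addition (−0.21, adjusted p = 0.0691 from edgeR with all libraries). The summed level of the list was 8879 to 9342 CPM in the Pdcd1f/f and 7523 to 7679 CPM in Pdcd1f/fLysMcre TAMs. Of 9 neutrophil markers, 6 were tested, 3 with a log2 fold change above 0 and 3 below, and Mmp8 and Csf3r were lower. Retnlg was at −0.95 without overlap between the genotypes (adjusted p = 0.110 from edgeR). With GC and length offsets it was lower and past the threshold (−0.99, adjusted p = 0.0434 from edgeR). S100a8 was at 0.23 and S100a9 at 0.12, neither past the threshold, and S100a8 was at 0.33 and past it without the libraries that stood apart (adjusted p = 0.00302 from edgeR). The list had sums of 139 to 144 and 116 to 120 CPM, and 3 of the 9 had at most 10 counts in any library. Endothelial markers summed to 39.9 to 42.7 and 32.1 to 34.5 CPM (1 of 4 lower, Pecam1) and fibroblast and fibrosarcoma markers to 66.3 to 71.9 and 62.4 to 69.6 CPM (1 of 8 lower, Col1a2). T and NK cell markers (12.8 to 14.2 and 11.2 to 13.1 CPM), B cell markers (3.60 to 4.47 and 2.55 to 3.13 CPM), dendritic cell markers (2.22 to 3.03 and 4.12 to 4.21 CPM) and erythroid markers (at most 0.382 CPM) were at low levels. Of these, 1 of 8 T and NK cell, 1 of 4 B cell and 3 of 5 dendritic cell markers were tested, and edgeR called none. No erythroid marker was tested. DESeq2 called the B cell marker Cd79b lower (adjusted p = 0.0312), and with GC and length offsets edgeR called Cd79b lower and the dendritic cell marker Zbtb46 higher (adjusted p = 0.0467 and 0.0491). Proliferation markers summed to 1102 to 1417 and 1246 to 1380 CPM, with none called by edgeR and Ccna2 higher with GC and length offsets. Xist was counted in every library and was lower in Pdcd1f/fLysMcre TAMs (log2 fold change −0.99), and the Y-linked genes Ddx3y, Kdm5d, Eif2s3y and Uty, each higher and past the threshold, summed to 1545 to 1914 normalized counts in Pdcd1f/f and 6267 to 7233 in Pdcd1f/fLysMcre libraries, so the balance of sexes cannot be told apart from the genotype. Pgk1 and G6pdx are the X-linked genes of the list and overlapped between the genotypes. The part of these transcripts in the pathway results was not tested.

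Several of the genes have close copies in the genome. In the count table, 11 pseudogene rows of Aldoa, Gapdh, Ldha, Pgam1 and Pgk1 had at most 29 counts in any library, against at least 3703 in every parent gene, so counts assigned to these rows were few. A second Ensembl ID with the symbol Aldoa had 10 to 17 counts and was not used. How reads mapping to several places were counted is not given in the sources used here, and reads of these 5 genes that also match a pseudogene may be missing from their totals.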

How the data were processed

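RNA-seq was done on sorted TAMs of 3 Pdcd1f/f and 3 Pdcd1f/fLysMcre libraries (stranded polyA kit, paired-end 42-nt reads). The study describes the TAM gate, live CD45+CD11b+F4/80+Ly6G- cells, for its SHP-2 mice. The authors trimmed reads with cutadapt 2.5, aligned them to GRCm38 with STAR 2.7.3a and counted them on genes of Ensembl 98 with featureCounts (Subread 1.6.2), and deposited raw counts for 55421 genes. Handling of strand and of multi-mapped reads is not given in the sources used here. A normalized signal table of 16552 genes, also deposited, equals the counts divided by 1 size factor per library (0.895 to 1.08, relative deviation at most 5e-15). Normalized counts in the text are counts divided by these factors. Library totals were 41833823 to 51417209 counts.

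Counts were tested with edgeR 4.0.16 (R 4.3.3): filterByExpr (minimum count 10, minimum total 15), TMM, robust glmQLFit, two-sided glmQLFTest, and Benjamini-Hochberg adjustment over all 14469 genes tested, with a threshold of 0.05. Standard errors and 95% intervals came from the same fit. For one gene, the smallest two-sided exact permutation p of 3 against 3 libraries is 0.1. CPM per kilobase used TMM-scaled counts and the summed exon length of GENCODE M21, which paired 55240 of 55421 IDs with a symbol. Promoter windows came from RefSeq (GRCm38.p6). Scripts were tested on simulated counts. Counts of libraries of one genotype differed by more than sampling noise (chi-square per gene 5.42 to 43.0), so none was taken as a library deposited more than once. This does not show that they came from separate animals.

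Alternatives were RLE size factors, other expression filters, DESeq2 1.42.0, the replicate number as a block, loess offsets per library on GC content and length (span 0.5), both together, and each library left out. Leaving out both libraries that deviated with GC content was added after the data were seen. The members, the other lists and the tests were chosen with earlier results of these data known. All 33 members are reported, with values in every library for members past the threshold or without overlap. Pfkl and G6pdx were also given by library, chosen after their values were seen. Of the other lists, genes past the threshold are named.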

Additional observations from a re-analysis of the deposited data

How the results depend on the processing

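Pfkfb3 kept its direction in all 14 alternative fits and its side of the threshold in 12. The main test called 786 genes and 1 pathway gene. RLE size factors, the filter by which the pathway genes were chosen and the replicate block changed the count over all genes by less than 1.5 times (782, 787 and 1027). Testing all genes with at least 1 count called 1951 genes and 3 of the pathway (Pfkfb3, Pfkl and Pgls), and DESeq2 1599 and 2 (Pfkfb3 and Pfkl), with 1964 adjusted p-values given as NA. GC and length offsets called 2694 and 6, and with the replicate block 2770 and 7 (Pgk1 in addition). Leaving out both libraries that deviated with GC content called 3757 and 10, with 2 libraries in each arm. Leaving out 1 library at a time gave 222 (without Pdcd1f/fLysMcre replicate 1) to 3181 genes (without Pdcd1f/f replicate 1) and 0 to 9 pathway genes. The counts without Pdcd1f/f replicates 2 and 3 were 224 and 354, and without Pdcd1f/fLysMcre replicates 2 and 3 they were 370 and 530. The 0 was found without Pdcd1f/f replicate 2 (2 at an unadjusted p under 0.05 in edgeR) and without Pdcd1f/fLysMcre replicate 1 (5 at that level), and the 9 without Pdcd1f/f replicate 1, all lower (Pfkfb3, Slc2a1, Tpi1, Gpi1, Pfkl, Pgls, Pfkfb4, Slc16a3 and Hk3). Pkm turned from −0.03 to 0.12 on the log2 scale with the offsets, with and without the block (adjusted p = 0.0474 and 0.0345 from edgeR). The cause of these shifts was not tested. Of 448 values of single pathway genes under the alternatives, 414 stayed on their side of the threshold without a called gene changing sign, 30 newly passed it, 2 no longer did and 2 reversed, and the sign differed from the main estimate in 37. The replicate numbers are shared by the labels only. Deviations of same-numbered libraries correlated at −0.013, −0.097 and 0.22, and not every library correlated best with its own number, so the numbers were not taken as pairs. With the replicate block 1027 genes and 2 pathway genes (Pfkfb3 and Pfkl) were called. The lowest count of the 32 genes in any library was 83, and Slc2a3 and Slc2a6, with the fewest counts, had the widest intervals.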
